A study of Oryza sativa with 6 samples.

Results

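Sucrose synthases and cell wall invertases are among the enzymes with which plant cells split the sucrose that arrives from leaves. In rice (Oryza sativa), their transcripts were followed in the young uppermost internode, the topmost stem segment, through every probe set that reads 1 gene and carries the name SUS1 to SUS7 or CIN1 to CIN3 in its symbol or synonyms. Of these 10 genes 9 were represented (of 17905 genes with a probe set of their own), by 11 of the 57381 probe sets on the array: 8 for the sucrose synthases SUS1 to SUS6 and 3 for the invertases. SUS7 had no such probe set and is not analysed here.

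Total RNA came from the wild type cultivar Nipponbare and from coi1-13, which the labels call a mutant without saying how the lesion acts. COI1 is the F-box protein of jasmonate perception. The labels give both groups as internodes, with no treatment, time or age named, and each had 3 biological replicates on 3 Affymetrix arrays. Whether a replicate was 1 plant or a pool is not stated in the sources used here. Values are log2 signals that were scaled to 1 level on all arrays before deposit, and the number of arrays limits their precision. A probe set passed, and rose or fell, where limma's Benjamini-Hochberg adjusted p over all tested probe sets was under 0.05. The background level is that of the highest of 33 negative controls, probe sets on the array for sequences not from rice.

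Sucrose synthase works inside the cell and turns sucrose and UDP into fructose and UDP-glucose, a sugar donor for cellulose and starch, in a reversible reaction. Cell wall invertase works outside the cell and splits sucrose irreversibly into glucose and fructose, which are then taken up as hexoses. In growing stems and grains both enzymes are known as marks of sink tissue, where imported sucrose is used or stored. SUS3 and SUS4 are known in rice for their expression in the filling grain, CIN2 as the gene GIF1 that grain filling requires, and CIN3, also called INV4, for its expression in anthers.

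The arrays stood close together within groups (Pearson's r of 0.977 to 0.980 over tested probe sets, which are not independent replicates) and less so between groups (0.943 to 0.946). The COI1 family genes COI1A, COI1B and COI2 differed by -0.11, 0.00 and -0.09 between groups on the log2 scale and did not pass. The COI1A values of the groups did not overlap, and its outcome was the same under only 8 of 13 alternatives (adjusted p of 0.00234 to 0.199, lower in coi1-13 in each). Which of these genes coi1-13 affects is not stated in the labels. Of the internode and stem markers, 7 of 8 probe sets were above the negative controls on all 6 arrays, and that of the expansin gene EXPA4, at the floor of 0 on 1 array, was not tested. All 7, which read only 5 genes, were lower in coi1-13, where 19.4% of all tested probe sets were. The call of 1 of the 7 held under only 10 of 13 alternatives. The signal summed over the list was 36681 to 38319 on the wild type side against 29371 to 30469 in the mutant. Some genes known from anthers were also read at high signal in both groups. Mean log2 signals in wild type and coi1-13 were 14.40 and 14.29 for RTS, 13.85 and 13.74 for C6, and 13.29 and 12.38 for C4. RAFTIN1 stood at 12.40 in wild type and differed by -0.40 in coi1-13. These were the brightest of the 10 tested anther and pollen markers, and the others were dimmer in both groups. The dimmest, PTC1, stood at 7.22 and 5.34, and was above the negative controls on only 2 coi1-13 arrays. Whether the samples held other tissue beside the labelled internode was not tested. Of 13 tested leaf marker probe sets 5 were higher and 3 lower (summed signals of 90214 to 93990 and 102230 to 105529). Of all tested probe sets 16.5% were higher and 19.4% lower. The share of leaf marker probe sets that fell was thus near that background, and the share that rose was above it. The 13 probe sets read 7 genes, and most of those that rose were for the same gene, RBCS. Of 4 phloem probe sets, for the sucrose carrier genes SUT1, SUT2 and SUT4, only that of SUT1 passed. Its log2 change was 1.37, the same direction as SUS4 and CIN1. The other 3 differed by 0.17, 0.09 and -0.20, so the list as a whole did not rise with SUT1. The list sums of 5494 to 5744 in wild type and 8324 to 8490 in coi1-13 include SUT1 itself. In such bulk tissue, fewer cells of a type and less RNA per cell cannot be told apart, and the part of these markers in the results below was not tested.

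Neither family moved 1 way. One sucrose synthase gene, SUS4, and the invertase gene CIN1 rose in coi1-13, by 1.89-fold and 2.57-fold. SUS1, SUS2 and SUS3 fell, the last of them 2.35-fold, as did both remaining invertases among the members, CIN2 by 1.89-fold and CIN3 by at least 1.96-fold. SUS5 and SUS6 did not pass the test. Of the 10 member probe sets tested, 2 of them for SUS1, 8 passed (limma, Benjamini-Hochberg adjusted p under 0.05), against 35.9% of all 34355 tested probe sets. The 8 were 2 higher, where 16.5% of all tested probe sets were, and 6 lower, where 19.4% were. Of all calls 46.0% were higher, and 28.1% when arrays were centred on their medians instead. The values of the groups did not overlap for 9 of the 10, and for 47.5% of all tested probe sets.

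**Figure D1:**
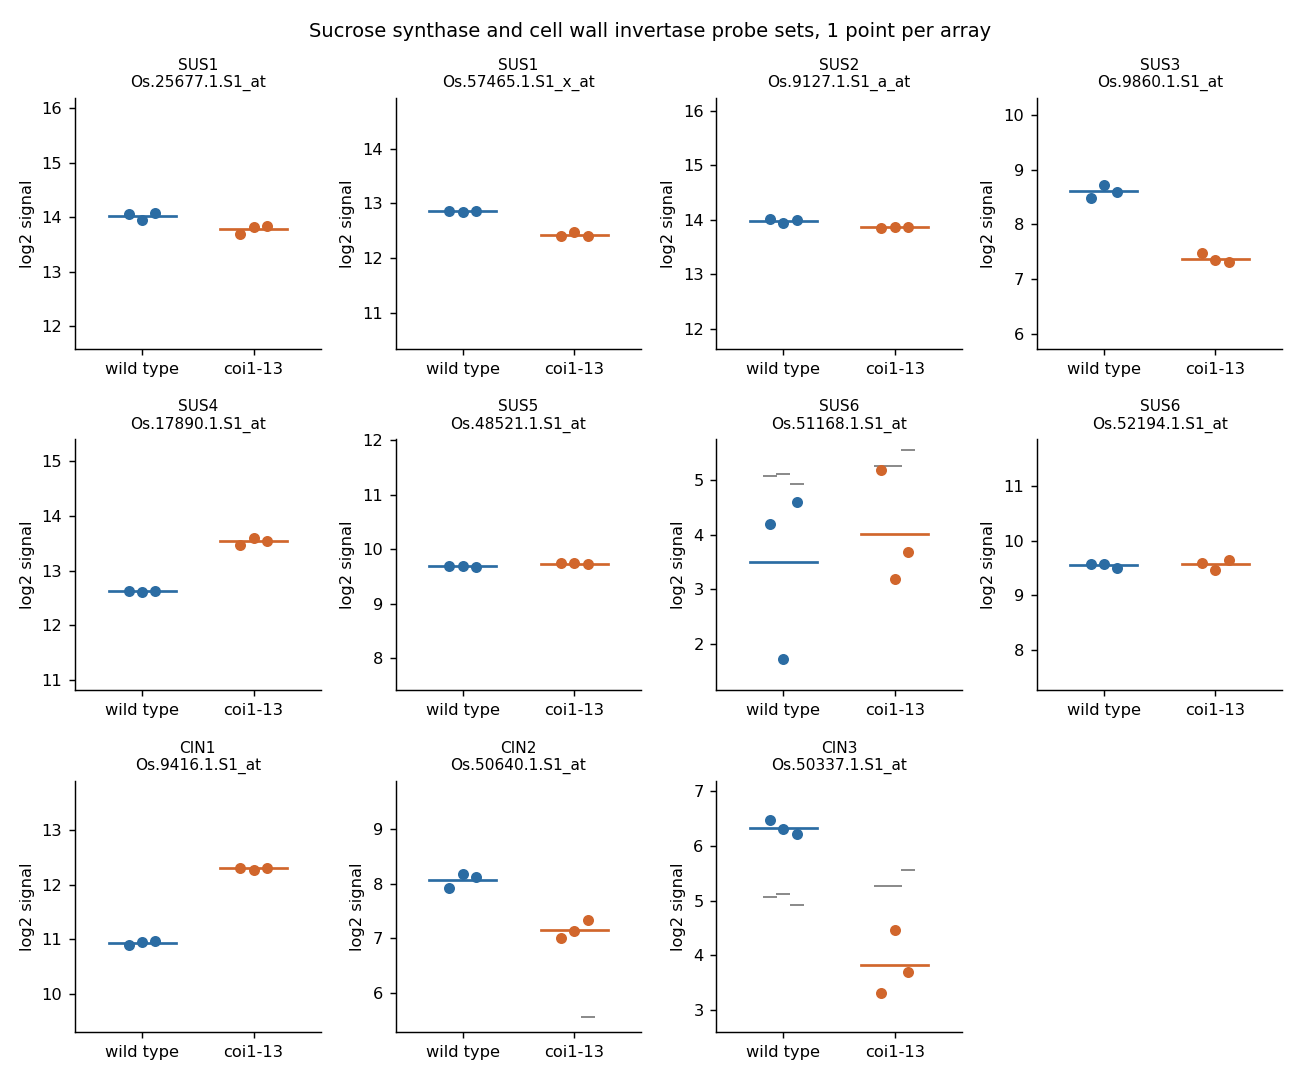
Log2 signal of each of the 11 member probe sets on each array, with 3 wild type and 3 coi1-13 points per panel, a line at each group's mean and, where they lie in the panel, grey ticks at the highest negative control of each array. Every panel spans the same number of log2 units. The steps of SUS3, SUS4, CIN1, CIN2 and CIN3 are larger than the scatter of their points, and the CIN3 points of coi1-13 and all points of the dim SUS6 probe set lie under the grey ticks.

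SUS1 (LOC4333062) was read by a pair of probe sets. On the first and brighter, wild type arrays gave log2 signals of 14.06, 13.95 and 14.07, and coi1-13 arrays 13.70, 13.81 and 13.84. On the second, whose suffix marks probes that may also match other sequences, the values were 12.87, 12.85 and 12.87 against 12.40, 12.48 and 12.41. All wild type values lay above all coi1-13 values on both. The falls were of different size, -0.24 ± 0.05 (SE, n = 3 per group; limma adjusted p = 0.00204) and -0.43 ± 0.04 (adjusted p = 5.9e-06). Falls at least as large were found in 25.0% and 12.7% of all tested probe sets, so the first of them was a common size of change on these arrays.

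SUS2 (LOC4340386) showed the smallest change that passed. Its wild type signals were 14.01, 13.94 and 13.99 and its coi1-13 signals 13.86, 13.88 and 13.86. The groups did not overlap, but the difference was only -0.12 ± 0.03 (SE; adjusted p = 0.0151). That call was lost without wild type replicate 1 (adjusted p = 0.0668), without wild type replicate 3 (0.0525) and without the trend of variance with signal that limma fits (0.123). SUS1 and SUS2 signals of about 14 lay close to the highest on these arrays, which was 14.76 to 14.89, and an effect of saturation on their small differences was not tested.

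SUS3 (LOC4343910) had the largest change among the sucrose synthases. Wild type arrays read 8.49, 8.73 and 8.59, and coi1-13 arrays 7.47, 7.34 and 7.30. Every coi1-13 value was lower than the lowest wild type value by more than the range within either group. The fall of -1.23 ± 0.11 (SE; adjusted p = 7.8e-06) passed under all 13 alternative processings (other scalings and filters, a floor, other variance models, and each array left out), at -1.35 to -1.17, and only 1.89% of tested probe sets fell as much.

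SUS4 (LOC4332788) went the other way. It stood at 12.63, 12.60 and 12.63 in wild type and at 13.47, 13.60 and 13.54 in coi1-13, with a gap between groups many times the spread within them. The rise was 0.92 ± 0.04 (SE; adjusted p = 4.7e-08), it passed under all 13 alternatives at 0.80 to 0.95, and 6.02% of tested probe sets rose as much. Its coi1-13 signals came near those of SUS1 in coi1-13. An effect of saturation on this rise, or on the SUS4 ratios below, was not tested.

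SUS5 (LOC4335447) gave nearly the same signal on all arrays, 9.70, 9.69 and 9.68 in wild type and 9.74, 9.74 and 9.72 in coi1-13. Although these values did not overlap, the difference of 0.04 did not pass (limma adjusted p = 0.555), and its 95% interval ran from -0.07 to 0.16. Limma's SE of 0.05 draws on the spread of other probe sets too. It was larger than the SD of 0.01 within each group. SUS6 (LOC4331252) was read at 9.56, 9.58 and 9.49 in wild type and at 9.59, 9.45 and 9.65 in coi1-13 by the brighter of its probe sets. Here the groups overlapped, and the difference was 0.02 (adjusted p = 0.84; interval from -0.13 to 0.17). Larger changes of either gene lie outside these intervals, smaller ones within them, and both differences turned negative, still without passing, under median centring (-0.08 and -0.10). The dim SUS6 probe set was above the negative controls on none of the 6 arrays (1.72 to 5.18) and was not tested.

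CIN1 (LOC4329561) had the largest rise of all members. Its signals were 10.89, 10.95 and 10.96 in wild type and 12.31, 12.28 and 12.30 in coi1-13. The spread within groups was small (SD of 0.04 and 0.02), and the groups lay far apart. The rise of 1.36 ± 0.04 (SE; adjusted p = 3.3e-09) passed under all 13 alternatives, between 1.24 and 1.37. A rise of this size or more was found in 2.55% of tested probe sets.

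CIN2 (LOC4335790), whose protein is the grain filling invertase GIF1, read 7.92, 8.17 and 8.12 in wild type and 6.99, 7.12 and 7.34 in coi1-13. Again the groups did not overlap. The fall of -0.92 ± 0.13 (SE; adjusted p = 0.00031) passed under all 13 alternatives, at -1.04 to -0.84, and 3.27% of tested probe sets fell as much.

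CIN3 (LOC4335789) was the dimmest of the tested members. It read 6.47, 6.32 and 6.21 on wild type arrays, each above that array's highest negative control, and 3.31, 4.47 and 3.69 on coi1-13 arrays, where none was. Its coi1-13 level is therefore only a bound, and the fall is given as at least 1.96-fold. Means were 6.33 in wild type and 3.82 in coi1-13, where the highest negative controls averaged 5.36. The limma adjusted p of 0.000742 belongs to the fitted difference of -2.51, not to the bound. The filter asked for a mean of at least 4.37 over all arrays. With its coi1-13 mean under that value, CIN3 was tested only because of its wild type signal. It passed under all 12 alternatives that tested it, and the filter on the upper 40% by mean signal removed it. CIN2 and CIN3 are next to each other among the protein-coding genes of the RefSeq assembly ASM3414082v1, with no protein-coding gene between them, and both fell.

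Most anther and pollen markers fell, as CIN3 did. Of the 10 tested, 7 were lower in coi1-13, 0 higher and 3 did not pass. Of all tested probe sets 19.4% were lower and 16.5% higher. On all arrays 9 of the 10 were above the negative controls, and no value was at 0. The call of the anther gene C6, the smallest of the 7, held under 5 of 13 alternatives. Summed over the list, signal was 55345 to 56524 in wild type against 43476 to 47146 in the mutant. The fatty acid hydroxylase gene CYP703A3 fell by 3.04 on the log2 scale, the most in the list. The internode and stem markers fell as well, in all 7 tested probe sets, of 5 genes. The part of either marker list in the falls of CIN3, CIN2 and SUS3 was not tested.

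**Figure D2:**
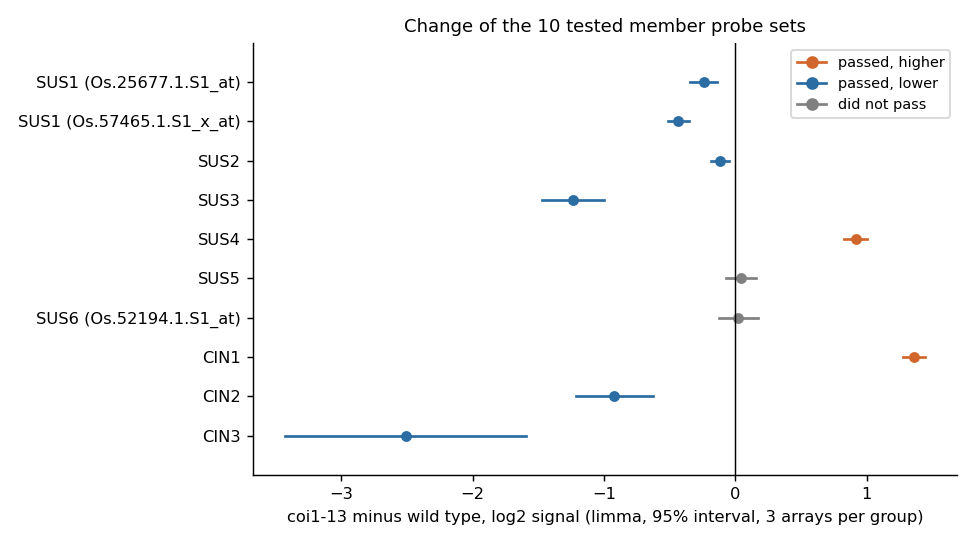
Difference in log2 signal, coi1-13 minus wild type, of the 10 tested member probe sets, with 95% intervals from limma (3 arrays per group) and colours for the outcome of the test. SUS4 and CIN1 lie to the right of 0, SUS1, SUS2, SUS3, CIN2 and CIN3 to the left, and the intervals of SUS5 and SUS6 cross it; the CIN3 point is the fitted difference of -2.51, of which only the bound in the text is measured.

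Set side by side, both families held members that rose and members that fell. Among 7 tested sucrose synthase probe sets 1 was higher, 4 were lower and 2 did not pass, with a median log2 change of -0.12 (-0.24 under median centring) and a range from -1.23 to 0.92. Among the 3 member invertase probe sets 1 was higher and 2 were lower, with a median of -0.92 (0.22 in the upper 40% by mean signal, where CIN3 was not tested) and a range from -2.51 to 1.36. CIN4 and CIN7 carry the CIN name too but were not listed as members, so this median leaves them out. They differed by 0.13, which did not pass, and by 0.16, which did. The median over all tested probe sets was -0.01. A difference between the families was not tested, since the members were chosen with results known, and 3 probe sets give little to compare. Changes of at least 2-fold that passed were 3 in all (SUS3, CIN1 and CIN3 by its fitted difference, whose bound is just under 2-fold), against 5.45% of all tested probe sets.

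**Figure D3:**
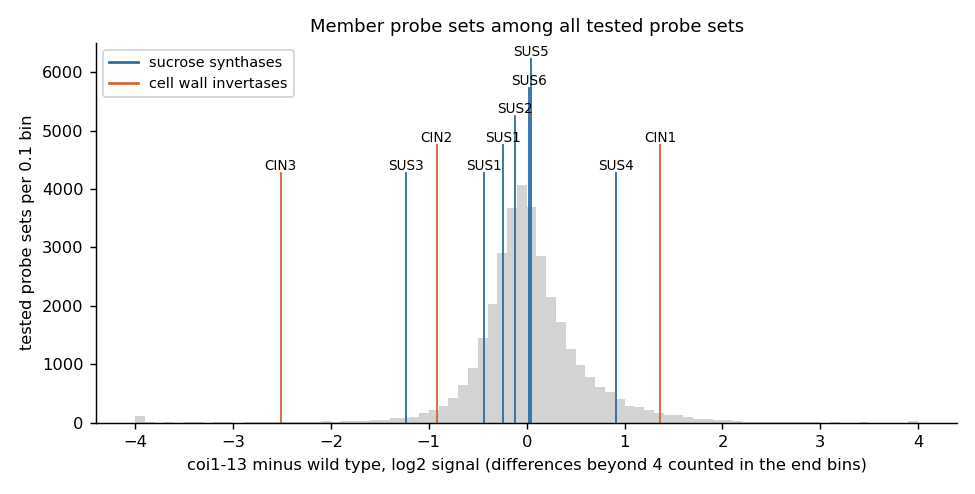
Histogram of the log2 change of all 34355 tested probe sets in bins of 0.1, with differences beyond 4 placed in the end bins, and a line for each tested member probe set (colours give the family, heights carry no value). SUS1, SUS2, SUS5 and SUS6 fall in the body of the distribution, while SUS3, CIN2 and CIN3 lie in its left tail and SUS4 and CIN1 in its right tail.

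A difference between members of the same array does not depend on how whole arrays were scaled, so it was taken for pairs of members as well. The 6 pairs were chosen after the values were seen. SUS4 minus SUS1 (first probe set) was -1.42, -1.35 and -1.44 on wild type arrays and -0.23, -0.21 and -0.31 on coi1-13 arrays. The SUS4 to SUS1 signal ratio thus shifted 2.23-fold, with no overlap between groups. SUS4 minus SUS3 moved by 2.15 and SUS4 minus SUS2 by 1.03 on the log2 scale. CIN1 minus CIN2 was 2.97, 2.79 and 2.84 in wild type and 5.32, 5.15 and 4.96 in coi1-13, a 4.86-fold shift of the ratio. In each of these pairs a member that rose was set against a member that fell, so a shift of the ratio was bound to appear. The ratios describe its size and say nothing of which transcript is more abundant, since signals of different probe sets are not on 1 scale.

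In the remaining pairs both members moved the same way. CIN1 minus SUS4 was 0.44 higher in coi1-13 on the log2 scale, without overlap between groups. CIN2 minus SUS3 was 0.31 higher, and here the within-array differences were -0.57, -0.56 and -0.47 in wild type and -0.47, -0.22 and 0.03 in coi1-13. By a two-sided exact permutation test, 5 of the 6 pairs reached p = 0.1, the smallest that 3 arrays against 3 allow, and CIN2 minus SUS3 gave p = 0.2. Adjusted over the 6 pairs these were 0.12 and 0.2, so none passed, and 3 arrays a group could not have let any pass.

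Other genes that handle sucrose and its products were counted from lists chosen by symbol, to be read against the 16.5% of all tested probe sets that rose and the 19.4% that fell. Of 5 other invertase probe sets, 3 rose, 1 fell and 1 did not pass. NIN1, a neutral invertase gene, rose 1.54-fold, from 10.17 ± 0.08 to 10.80 ± 0.10 (SD, n = 3 each; adjusted p = 2.7e-05). NIN3 of the same class and CIN7 (also INV1) rose by 0.20 and 0.16, with both calls lost under median centring and without the variance trend. CINV1, which encodes a cytosolic invertase, fell 1.28-fold, from 10.69 ± 0.08 to 10.33 ± 0.07 (adjusted p = 0.000546). Opposite directions were thus found among the invertases inside the cell as well. CIN4 differed by 0.13 and did not pass.

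In sucrose synthesis, small changes went both ways. Of 4 tested probe sets 1 rose, 2 fell and 1 did not pass. The sucrose-phosphate synthase gene SPS6 (also SPS3F) fell by 0.20 on the log2 scale and the sucrose-phosphatase gene SPP2 fell by 0.16, each with its call lost only without the variance trend. SPS8 (also SPS4F) rose by 0.14, a call that held under only 3 of 13 alternatives and was lost on leaving out any array but wild type replicate 2 (adjusted p of 0.0722 to 0.159). SPP1 differed by -0.10 and did not pass, and SPS2F was above the negative controls on no array.

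Of 9 tested probe sets for genes that use hexoses, 2 rose, 2 fell and 5 did not pass. The hexokinases phosphorylate glucose, and several share numbers in the annotation, so their loci are given. LOC4338010 (HXK6 or HXK7) fell 1.53-fold, from 9.90 ± 0.02 to 9.28 ± 0.13 (SD, n = 3 each; adjusted p = 6.8e-05), and HXK4 (LOC4342654) fell 1.39-fold. The HXK4 call was lost without wild type replicate 1, wild type replicate 2 or coi1-13 replicate 2 (adjusted p of 0.0814, 0.0961 and 0.0796) and without the variance trend (0.116). LOC4326547 (HXK2 or HXK6) rose by 0.17. Under median centring its difference was 0.05 and did not pass (adjusted p = 0.614). That call was also lost without the variance trend (0.124) and without replicate 2 of either genotype (0.096 and 0.102). FRK1, a fructokinase gene, rose 1.35-fold, from 9.01 ± 0.01 to 9.45 ± 0.08 (adjusted p = 0.000479), and held under all 13. The fructose that both sucrose synthase and invertase release enters metabolism through this kind of enzyme.

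Of 13 tested probe sets for starch synthesis, 0 rose, 4 fell and 9 did not pass. AGPS2, a subunit gene of ADP-glucose pyrophosphorylase, fell 1.32-fold, from 11.38 ± 0.03 to 10.98 ± 0.10 (SD, n = 3 each; adjusted p = 0.000163). The starch synthase genes SSI and SSII-2 fell by 0.25 and 0.44, and SSII-3 fell 1.94-fold (adjusted p = 0.0077). Second probe sets of SSII-2 and SSII-3 were dim and did not pass. That of SSII-2 was above the negative controls on no wild type array and on 2 coi1-13 arrays. Its difference was 0.96, opposite in direction to the fall of SSII-2 above (limma adjusted p = 0.174), with the same outcome under 11 of 12 alternatives. The dim SSII-3 probe set was above the controls on 3 and 1 arrays, with a difference of -0.77. The SSII-2 call was lost without the variance trend (adjusted p = 0.0795) and without wild type replicate 2 or 3 or coi1-13 replicate 1 or 3 (adjusted p of 0.053 to 0.0763). All 4 tested probe sets of the branching enzyme gene SBE1 lay between -0.09 and 0.07, and none passed. Of the lists together, 6 of 31 tested probe sets rose and 9 fell, where 16.5% and 19.4% of all tested probe sets did. The share that rose was thus near that background.

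**Figure D4:**
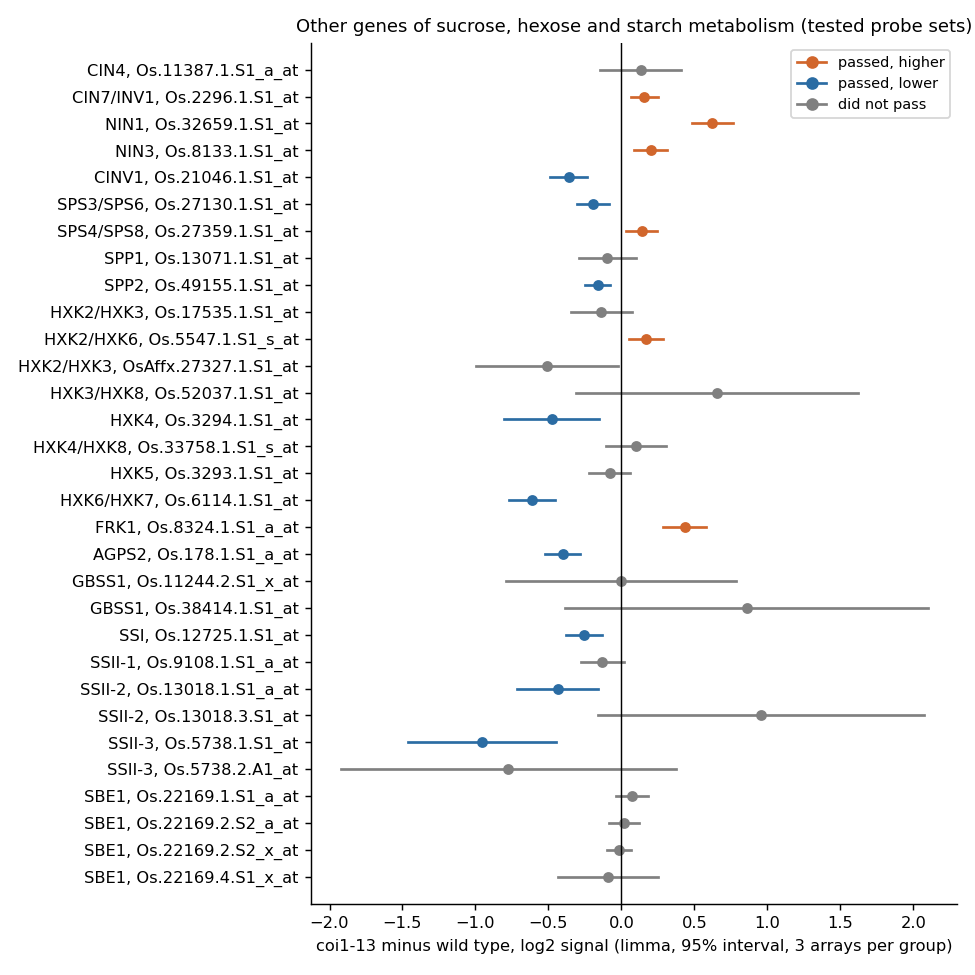
Difference in log2 signal, coi1-13 minus wild type, of the tested probe sets of other invertases, sucrose synthesis, hexose use and starch synthesis, from top to bottom, with 95% intervals (limma, 3 arrays per group). The probe sets that passed are mixed in direction except in the starch group at the bottom, where AGPS2, SSI, SSII-2 and SSII-3 lie to the left of 0.

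The named genes whose profile over the 6 arrays was most like that of CIN1 were GRXS5, a glutaredoxin gene, SGR, a chlorophyll breakdown gene, and CML15, a calmodulin-like gene. All had a Pearson's r of 1.00 to 2 decimals and rose by 1.01, 1.33 and 1.24. For SUS3 they were genes annotated as peroxidase (LOC4339222), Ip (LOC4344541) and cuznsod1 (LOC4332846), also at 1.00, which fell by 0.33, 0.27 and 0.21. With 2 groups, any probe set that differs steadily between them has a high r: of 2893 probe sets of named genes, 445 had an r over 0.95 with CIN1 and 322 with SUS3.

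**Figure D5:**
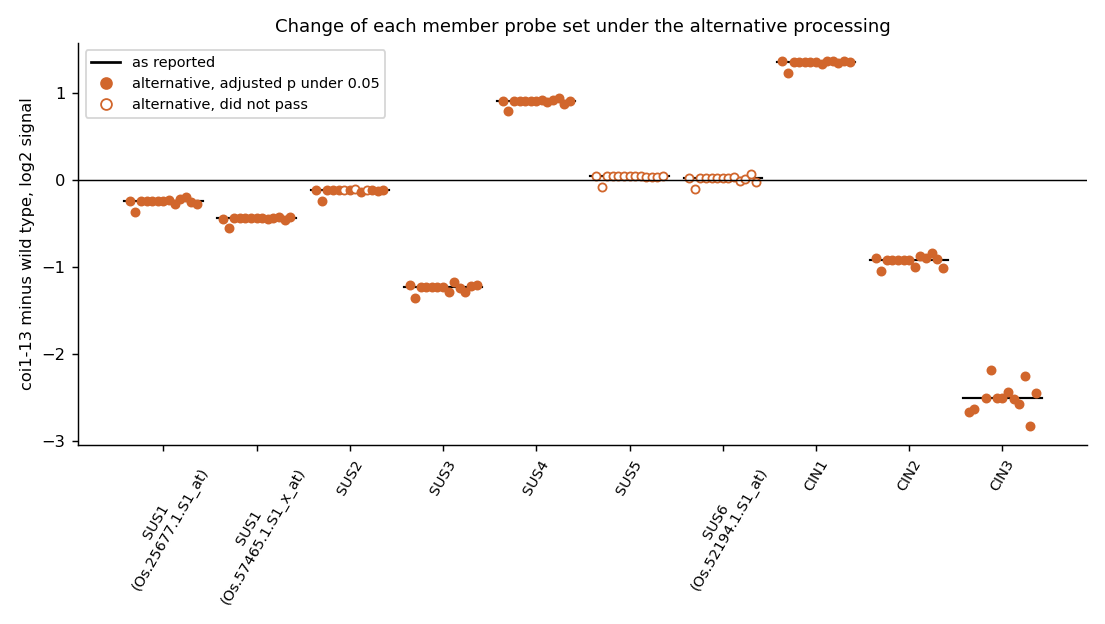
Log2 change of each tested member probe set under the alternative processings (points, filled where the adjusted p was under 0.05, open where it was not) against the reported value (line). No filled point lies on the other side of 0, the lower point of each member is median centring except for CIN3, and open points occur for SUS2 and for SUS5 and SUS6, which did not pass in any setting.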

How the data were processed

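Log2 signals of 57381 probe sets on 6 arrays had been deposited. They were processed by the authors with GCOS 1.4, per the submitters' processing notes. That they had been scaled was judged from the values, whose 2% trimmed mean, as powers of 2, was 500.07 on all arrays. Values at 0 are the floor. The platform annotation gave genes (exactly 1 for 22436 probe sets), which were named through the RefSeq gene table of ASM3414082v1. Genes called SPS or SPP for other enzymes, and a bHLH gene called BC1, were left out of the lists.

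Limma 3.58.1 (R 4.3.3; lmFit, eBayes with trend, no block) compared coi1-13 with wild type over the 34355 probe sets other than the 123 controls in the upper 60% by mean signal (at least 4.37), with Benjamini-Hochberg adjustment over all of them. The scripts were tested on simulated data. A group with no array above the highest of 33 negative controls gives a bound. Members, lists and tests were chosen with earlier results of these data known. The rule for naming took all members and the 3 genes most alike in profile to a member of each family. From each list of sucrose, hexose and starch metabolism it took up to 4 genes with the smallest p. It did not cover the marker lists. The text adds CIN4, SPP1, SPS2F and SBE1, which were chosen with their values in view. So were the markers EXPA4, CYP703A3, C4, C6, RTS, RAFTIN1, PTC1, RBCS and SUT1. Other symbols of the lists had no probe set of 1 gene and are not analysed here. The labels do not say whether replicates were separate plantings, so p-values measure the spread between these samples. Limma shares that spread across probe sets, so an SE or interval is not that of a gene's own values alone. Alternatives were quantile normalization, median centring, other filters, a floor at 4, no variance trend, a replicate block and leaving out each array.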

Additional observations from a re-analysis of the deposited data

How the results depend on the processing

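Precision was limited by 3 arrays per group and, for CIN3 and 1 probe set of SUS6, by signal near the negative controls. The counts of 2 higher and 6 lower members stayed within 1.5 times these under every alternative. Over all probe sets 3721 were higher under median centring, which moved the median change from -0.01 to -0.13 and the share of calls that were higher from 46.0% to 28.1%. Of the other genes of sucrose and hexose metabolism, 2 instead of 6 were higher under median centring, and 2 higher and 5 instead of 9 lower without the variance trend. The sucrose synthase median was -0.24 under median centring, and the invertase median was 0.22 in the upper 40% by mean signal, where CIN3 was not tested. Replicate numbers are shared between genotypes, but same-numbered arrays did not deviate together (r of -0.0029, 0.0011 and 0.00042), and no array correlated best with the array of its own number. With the replicate block, 2 members were higher and 6 lower, and no member's call changed.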
